A study of Mus musculus with 17 samples.

Results

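The 9 genes described here encode the MHC class II antigen presentation machinery of the mouse, and their RNA was measured by bulk sequencing of bile duct in work on extrahepatic cholangiocarcinoma, which arises from the ducts that carry bile beyond the liver. They were found by symbol among the 43346 genes of the deposited table: the chains H2-Aa, H2-Ab1 and H2-Eb1, the loading factors H2-DMa, H2-DMb1, H2-DMb2, H2-Oa and Cd74, and the regulator Ciita. All 9 were found and all 9 passed the filter on low counts, as did 15795 genes of the table. All 17 libraries carry the same label, bile duct, with no genotype, treatment, age, strain or sex, so there are no conditions to set against each other. The only division is a code in the name of each count column: 6 codes, of which 5 (R62848, R62850, R63289, R63496 and R63500) cover 3 libraries and R63494 covers 2. The labels do not say what a code stands for, and nothing says that libraries came from separate animals, so the p-values below measure the spread between these libraries, which may be partly technical.

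MHC class II molecules are pairs of an alpha and a beta chain that display peptides from the endocytic route to CD4 T cells. The invariant chain Cd74 occupies the groove of new molecules and guides them to endosomes, where proteases trim it, the H2-DM pair swaps its last fragment for antigenic peptide, and the H2-O pair restrains H2-DM. Ciita, the class II transactivator, binds no DNA itself and is recruited by the RFX, NF-Y and CREB factors that sit on the X and Y boxes of class II promoters. Dendritic cells, B cells and macrophages carry class II as a rule, and interferon gamma can switch it on in epithelium and other cells.

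Of the 9 genes, 7 lie within 223.9 kb of chromosome 17 (mm10, from 34092340 at the start of H2-Oa to 34316199 at the end of H2-Eb1). Promoter letters are shown here because class II genes are known for shared X and Y boxes, through which Ciita acts. RefSeq promoters (GRCm38.p6) were at hand for 6 members. Both strands of the 250 bases before each start were searched for the Y box letters TGATTGG, for AAC followed by any 2 bases and ATGATGC, which takes in part of the X box, and for the palindrome TGACGTCA, a CREB-type site. The second motif was spelled after these promoters had been read. Capitals mark the matches, and each stretch is written 5′ to 3′ on the strand of its gene.
H2-Aa, chr17:34287855-34287931, minus strand: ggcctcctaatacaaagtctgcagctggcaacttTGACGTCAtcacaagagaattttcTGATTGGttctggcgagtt
H2-Eb1, chr17:34305748-34305824, plus strand: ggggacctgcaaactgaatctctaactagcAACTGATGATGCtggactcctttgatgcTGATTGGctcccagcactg
H2-DMb1, chr17:34153070-34153146, plus strand: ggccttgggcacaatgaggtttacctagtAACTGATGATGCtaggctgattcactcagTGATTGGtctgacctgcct
H2-DMb2, chr17:34145099-34145175, plus strand: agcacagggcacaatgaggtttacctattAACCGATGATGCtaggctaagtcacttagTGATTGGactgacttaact
H2-Oa, chr17:34092276-34092352, plus strand: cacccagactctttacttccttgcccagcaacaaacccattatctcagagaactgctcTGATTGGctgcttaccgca

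The Y box letters stood on the gene's own strand in 5 of the 6 members, ending 38 bases before the start in H2-Oa and 85 before it in H2-DMb2. They were in 7.23% of the 32851 RefSeq promoters. The second motif was in 3 members (H2-Eb1, H2-DMb1 and H2-DMb2) and in 10 promoters of the 32851. It was followed by the Y box after 16 bases in H2-Eb1 and after 17 bases in both H2-DMb genes. Only 5 promoters held both motifs, and 4 of these belonged to class II genes: the 3 members and H2-Ob, the partner of H2-Oa. As the second motif was spelled after these promoters had been read, its counts are a description and not a test. The palindrome in H2-Aa was in 1.55% of promoters. Neither RefSeq start of H2-DMa, which lie 9664 and 12350 bases from the start of the gene in the deposited table, had any of these letters before it. The RefSeq start of H2-DMb2 lies 1942 bases from that gene's start in the deposited table. The stretch shown for H2-DMb2 thus lies inside the span of the counted gene.

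The other 2 members lie elsewhere, Ciita on chromosome 16 (10488178 to 10527564) and Cd74 on chromosome 18 (60803848 to 60812646). Reads are a limit for some members. Of the 50-base windows of the longest coding transcript (GENCODE M21), 27.2% in H2-DMb1 and 29.5% in H2-DMb2 also occurred in another gene, mostly in the other H2-DMb gene. The aligned parts of these 2 transcripts were 94.96% identical, so their counts may be split between the copies. No 50-base window of the other 7 members occurred in a second gene. Ciita, with 4643 counts in all, overlaps Dexi, with 6349 counts, over 25034 bases. H2-Oa (791 counts) is covered by the antisense gene BC051537 (229 counts), and Cd74 (318616 counts) holds the microRNA gene Mir5107 (7355 counts). The strand setting of the counting is not given, so counts of these 3 members are uncertain to that degree.

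The 17 libraries held between 16400556 and 24152314 counts (median 17886041). Markers of duct epithelium were abundant: the keratin Krt8 had a median of 1149 RPKM (reads scaled to gene length and to the library total) and Epcam one of 505. CPM are counts scaled, with TMM factors, to the total over the genes that passed the filter. The 3 R62850 libraries stood apart: 6 pancreatic acinar enzyme genes summed to 3887 to 91075 CPM there and to 0.705 to 25.2 CPM in the other 14. Only 1 of these 6 genes passed the filter, so most acinar counts lie outside that total. Summed over 11 B cell markers, the R62850 libraries had 53.4 to 167 CPM, R63496_3 had 84.7 CPM and the other 13 had 17.8 to 43.6 CPM.

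Cd74 and the 3 chains were far more abundant than the genes that load and regulate them. On the RPKM scale, which allows levels of different genes to be compared, Cd74 ranged from 416 to 1020.0 with a median of 697 over the 17 libraries. The beta chain gene H2-Eb1 followed at 143 to 382 (median 258), the beta chain gene H2-Ab1 at 98.8 to 263 (median 190.3) and the alpha chain gene H2-Aa at 95.8 to 279 (median 171). Cd74, the class II chaperone, thus had a median level close to those of the duct keratins Krt19 (699.9) and Krt18 (688).

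The H2-DM and H2-O genes and Ciita were far lower. H2-DMb1, the beta chain of the peptide exchanger, had 11.3 to 23.3 RPKM (median 17.6), and its alpha chain H2-DMa had 6.27 to 17.4 (median 12.2). H2-DMb2, the other beta chain copy, had 1.16 to 6.39 (median 2.71). H2-Oa, the alpha chain of the H2-DM inhibitor, was the lowest member at 0.514 to 5.37 (median 1.67). Ciita, the transactivator, had the narrowest range, 2.10 to 3.53 RPKM (median 2.79), and made up 1.47% of the H2-Ab1 level in the median library. The ranges of H2-Aa and H2-Ab1 overlapped almost wholly, and that of Ciita lay within that of H2-DMb2. Within single libraries H2-Aa lay below H2-Ab1 except in R62850_1 and R62850_2, where the ratio of H2-Aa to H2-Ab1 was 1.15 and 1.06. Ciita lay above H2-DMb2 in R63500_1 (3.53 against 1.64 RPKM) and below it in R62850_3 (2.57 against 6.39 RPKM).

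**Figure D1:**
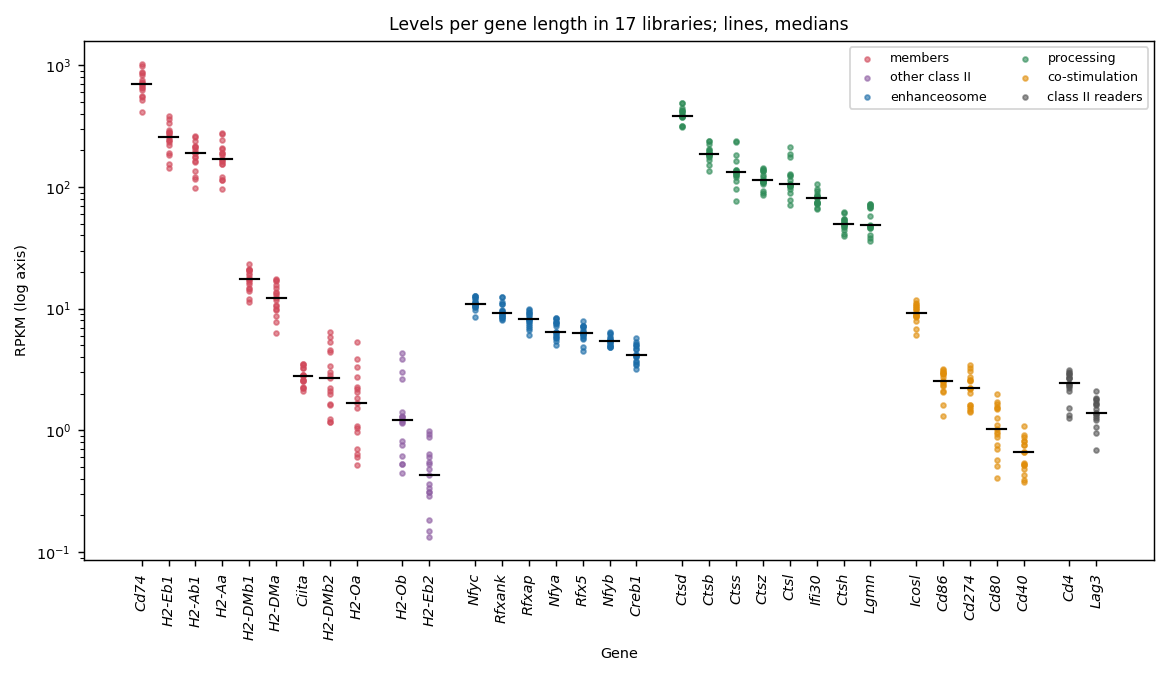
Each point is the RPKM (log axis) of a gene in 1 of 17 libraries and each line the median, for the 9 class II members and for other genes of the pathway. Genes at 0 in any library, H2-Ea-ps and Pdcd1lg2, are not drawn. Cd74 (median 697) and the 3 chains lie above H2-DMb1 (17.6) and the other 4 members without overlap.

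Together the 9 members took 0.114% of all counts in R62848_2 (95% Wilson interval 0.113% to 0.116%), the library where they were lowest, and 0.294% in R62850_2 (0.291% to 0.296%), where they were highest. These intervals cover counting error only, as PCR copies of a molecule were not told apart. In bulk RNA, fewer cells of a type and less RNA per cell cannot be told apart.

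The chains kept near-constant proportions while their levels varied. The ratio of H2-Eb1 to H2-Ab1 in RPKM lay between 1.31 and 1.53 in all 17 libraries, a 1.17-fold range, and that of H2-Aa to H2-Ab1 between 0.807 and 1.15. Cd74 stood at 1.02 to 1.34 times the sum of the 3 chains. The ratio of the inhibitor to its target was wider: that of H2-Oa to H2-DMa spanned 0.0476 in R63500_1 to 0.309 in R62850_2, a 6.48-fold range. H2-DMb2 made up 6.39% of the H2-DMb sum in R62848_1 and 24.5% in R62850_3.

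Class II levels differed between the column codes. In edgeR's quasi-likelihood F test over the 6 codes, fitted to all 15795 genes, 8 of the 9 members differed between codes at a Benjamini-Hochberg adjusted p below 0.05, every member but Ciita. The background was high, with 48.7% of all tested genes called. The median spread between the highest and the lowest code mean was 1.02 on the log2 scale over the members and 0.58 over all genes. Without the 3 R62850 libraries, 8 of 9 were again called. Without R62848_2, 7 of 9 were called, because H2-DMb1 had an adjusted p of 0.0553.

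H2-Aa, the alpha chain gene, had 525, 529 and 471.5 CPM in the R62850 libraries and 453 CPM or less elsewhere. It had 393 and 321 CPM in R63494, 317, 350.5 and 453 CPM in R63496, and 301, 342 and 353 CPM in R63289. It had 293, 224.5 and 216 CPM in R63500 and 294, 179.7 and 214 CPM in R62848. In CPM the R62850 libraries lay above all others and all of R63500 and R62848 lay below the other 4 codes. R63494, R63496 and R63289 overlapped. In RPKM, which uses all counts, R62850_3 (209.9) lay below R63496_3 (242.8), while R62850_1 and R62850_2 (274.8 and 278.6) lay above it. The highest and lowest code means differed 2.26-fold (edgeR quasi-likelihood test, adjusted p = 0.000284).

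The codes with the lowest chain levels also stood apart in stromal markers. The 6 fibroblast markers summed to 9624 to 10419 CPM in R62848 and 9304 to 11314 CPM in R63500, against 2535 to 6158 CPM in the other 11 libraries. The 5 endothelial markers summed to 279 to 302 CPM in R62848 and 221 to 241.7 CPM in R63500, against 109 to 162 CPM in the other 11 libraries. The part of these cells in the class II levels was not tested.

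H2-Ab1 and H2-Eb1, the beta chain genes, followed the same order of codes at the top and the bottom. H2-Ab1 lay between 399.8 and 437 CPM in R62850 and between 162 and 291 CPM in R62848, which overlapped with R63500 (197 to 262 CPM). H2-Eb1 lay between 408 and 458 CPM in R62850 and between 169.6 and 292 CPM in R62848. For both genes R63496_3, at 421 and 429 CPM, fell within the range of R62850. The highest and lowest code means differed 2.02-fold for H2-Ab1 (edgeR, adjusted p = 0.000924) and 2.05-fold for H2-Eb1 (edgeR, adjusted p = 0.00209).

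Cd74, the invariant chain gene, had 1249.8, 1457 and 1404 CPM in R62850, 1277 and 1009 CPM in R63494 and 971, 1022 and 1401 CPM in R63496. It had 879, 1001 and 1048 CPM in R63289, 943, 777 and 792 CPM in R63500, and 935, 587 and 729.9 CPM in R62848. No code was separated from its neighbour in the order of medians for this gene, although R62850 as a whole lay above R63289, R63500 and R62848. The highest and lowest code means differed 1.86-fold (edgeR, adjusted p = 0.00218).

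**Figure D2:**
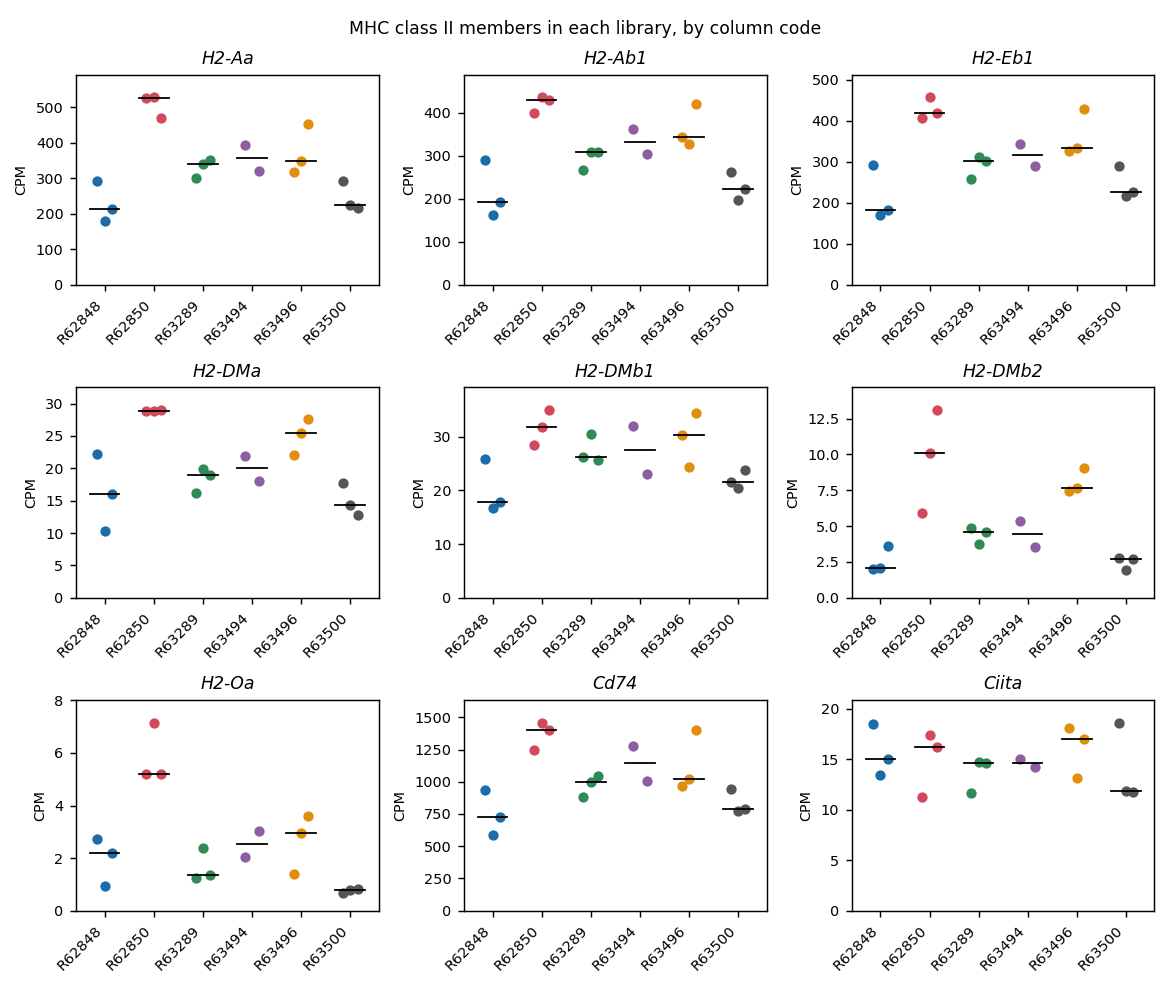
Each panel gives the CPM of 1 class II member in the 17 libraries, grouped by column code, with a line at the median of each code. R62850 has the highest median in every panel but that of Ciita, where the 6 codes overlap between 11.3 and 18.6 CPM.

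In CPM, H2-DMa, the alpha chain of the exchanger, was the steadiest member within R62850, at 28.9, 28.9 and 29.0. The other 14 libraries had 10.3 to 27.7 CPM. In RPKM the R62850 libraries had 17.3, 17.4 and 14.8, and R63496_3 had 16.9, so this closeness depends on the scaling. The code means of H2-DMa differed 1.95-fold (edgeR, adjusted p = 0.00278). H2-DMb1 spanned 16.8 to 34.98 CPM with a 1.59-fold difference between code means (edgeR, adjusted p = 0.0180), the smallest among the 8 called members. H2-DMb2 spanned 1.97 to 13.1 CPM, with 5.92, 10.1 and 13.1 CPM in R62850 and 7.45, 7.69 and 9.08 CPM in R63496, above all libraries of the other 4 codes. Its code means differed 3.61-fold (edgeR, adjusted p = 4.40e-05).

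H2-Oa, the inhibitor chain, showed the widest differences of the 9 genes on the fewest reads, 14 to 131 counts a library. It had 5.18, 7.15 and 5.21 CPM in R62850, above every other library, and 0.678, 0.790 and 0.842 CPM in R63500, below every other library. The other 4 codes overlapped between 0.921 and 3.62 CPM. Its code means differed 6.72-fold (edgeR, adjusted p = 0.000284). H2-Ob, which encodes the beta chain that pairs with it, was also highest in R62850, at 8.57 to 14.5 CPM, with 9.41 CPM in R63496_3 and at most 4.41 CPM in the other 13 libraries (edgeR, adjusted p = 7.67e-05). The listed B cell markers other than Blk also had their highest code mean in R62850. Blk was lowest in R62850_1 (4.23 CPM), highest in R63494_1 (10.4 CPM) and not called (edgeR, adjusted p = 0.811). Ms4a1 had 3.83, 10.1 and 14.7 CPM in R62850 and 5.63 CPM in R63496_3, and its median over the 14 libraries outside R62850 was 0.651 CPM. Cd79a had 12.6, 26.0 and 24.6 CPM in R62850 and 22.4 CPM in R63496_3, against a median of 9.12 CPM outside R62850. Pax5 had 1.97, 3.38 and 7.75 CPM in R62850 and 1.504 CPM in R63496_3, and was at 0 in 5 libraries. The part of B cells in the H2-O levels was not tested.

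Ciita, the regulator of all these genes, did not differ detectably between codes (edgeR, adjusted p = 0.871). It had 18.5, 13.4 and 15.1 CPM in R62848, 11.3, 17.4 and 16.2 CPM in R62850, and 11.6, 14.8 and 14.6 CPM in R63289. It had 15.01 and 14.2 CPM in R63494, 18.1, 13.1 and 17.05 CPM in R63496, and 18.6, 11.9 and 11.7 CPM in R63500. All 6 codes overlapped, and the code means lay within 1.17-fold of each other on 200 to 399 counts a library. Ciita made up 0.878% of the H2-Ab1 level in R62850_1 and 2.59% in R62848_2. Whether Ciita differed less between codes than its targets was not tested.

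The DNA-binding partners of Ciita form the enhanceosome. Of its 7 listed genes, 3 (42.9%) differed between codes in the edgeR test, against 48.7% of all tested genes. They were Rfxank (1.35-fold between code means), Nfya (1.41-fold) and Creb1 (1.54-fold). Rfxank was highest in R62850 and the other 2 in R63494. Rfx5, Rfxap, Nfyb and Nfyc did not pass (adjusted p = 0.0994, 0.0722, 0.237 and 0.175). The medians of the 7 genes lay between 4.20 RPKM for Creb1 and 10.99 for Nfyc, all above that of Ciita.

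Of the class II genes outside the 9, H2-Eb2, a second E beta gene, had 5 to 38 counts a library and did not pass the filter. H2-Ea-ps, annotated as a pseudogene, had 0 counts in all 17 libraries, which leaves room for up to 3 counts a library.

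All 8 genes of antigen processing differed between codes in the edgeR test, against 48.7% of all tested genes, but in another order than the class II genes. Their median levels ran from 48.9 RPKM for the cysteine protease Lgmn to 387 RPKM for the aspartic protease Ctsd, with the cysteine protease Ctsb next at 187 RPKM. Ctss, the protease that makes the last cuts in Cd74 in antigen-presenting cells, spanned 109 to 323 CPM, with its highest code mean in R63500 and its lowest in R63494. Ctsl, which does this in thymic epithelium, was likewise highest in R63500 and had the largest difference of the list, 2.47-fold between code means. In all, 5 of the 8 were highest in R63500, where the chains were low, and 7 of the 8 were lowest in R63494. Ifi30, the thiol reductase of the endosome, was the gene highest in R62850, at 1.43-fold.

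Among the partners on the surface, the 5 tested genes of the co-stimulation list were Cd80, Cd86, Cd40, Icosl and the co-inhibitory ligand gene Cd274. Of these 5, 1 (20%) differed between codes, against 48.7% of all tested genes. It was Icosl (1.60-fold, edgeR adjusted p = 0.00386, median 9.29 RPKM). Cd86 had a median of 2.55 RPKM and Cd80 varied most among the 5, 4.50-fold over the libraries. Cd4 and Lag3, the receptors on T cells that bind class II, had medians of 2.43 and 1.38 RPKM, and neither passed in edgeR (adjusted p = 0.101 and 0.729), at an unadjusted p below 0.05 (0 of 2) or in DESeq2 (0 of 2). Of the genes that set class II turnover at the surface, the ubiquitin ligase gene March8 had a median of 20.9 RPKM and differed 1.28-fold between code means (edgeR, adjusted p = 0.0459). March1, the ligase of dendritic and B cells, had a median of 1.32 RPKM and did not pass (adjusted p = 0.0710). Cd83, which protects class II from that ligase, differed 2.28-fold and was highest in R62850 (adjusted p = 0.00907).

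The interferon gamma axis was read at both ends. Ifng itself had a median of 0.0343 RPKM and did not pass the filter. Its receptor genes Ifngr1 and Ifngr2 had medians of 69.1 and 42.8 RPKM. Of the 7 tested genes of the axis, 4 (57.1%) differed between codes, against 48.7% of all tested genes. Among them were Ifngr1 (1.35-fold), Jak1 (1.25-fold) and Irf1 (1.51-fold). Socs1, a feedback inhibitor, varied most among the 7, 7.05-fold over the libraries. Of the 16 interferon gamma targets, 13 differed, with Psmb8 and Irf1 the most abundant (medians 17.5 and 16.2 RPKM) and Cxcl10 the most variable (9.57-fold over the libraries). The target score, the mean log2 CPM of its 16 genes, averaged 4.81 in R63494, 4.26 in R63289, 4.20 in R63496, 4.10 in R62850, 4.02 in R63500 and 4.01 in R62848. R62850, which had the highest class II levels, was thus not the highest in the target score.

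Markers of cells that carry class II did not share one order of codes either. The macrophage markers, all 10 of which differed between codes, summed to 849.8 to 924 CPM in R62848 and 765 to 966 CPM in R63500, against 429 to 948 CPM in the other 4 codes. The codes with the lowest chain levels thus had macrophage sums in the upper part of the range. C1qa and C1qb were the most abundant (medians 134 and 120.5 RPKM) and Fcgr1 the most variable (4.98-fold). Dendritic markers were low apart from Itgax (median 16.9 RPKM): Cd209a had a median of 1.29 RPKM, Ccr7 varied 9.49-fold, and 6 of the 10 differed between codes. The dendritic score averaged 2.25 in R62850, 1.94 in R63496, 1.80 in R63289, 1.61 in R62848, 1.38 in R63500 and 1.35 in R63494. Of the 4 tested B cell markers 3 differed, of the 7 tested T cell markers 0 did in edgeR, 1 at an unadjusted p below 0.05 and 2 in DESeq2 (most abundant Trbc2 and Trac, medians 12.6 and 10.96 RPKM, Trac varying 4.79-fold), and all 8 epithelial markers did, by 1.33-fold to 1.84-fold. In the remaining lists 1 of 4 plasma cell, 5 of 5 neutrophil, 4 of 5 endothelial, 6 of 6 fibroblast and 1 of 1 tested acinar genes differed. For comparison, 48.7% of all tested genes differed in edgeR.

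**Figure D3:**
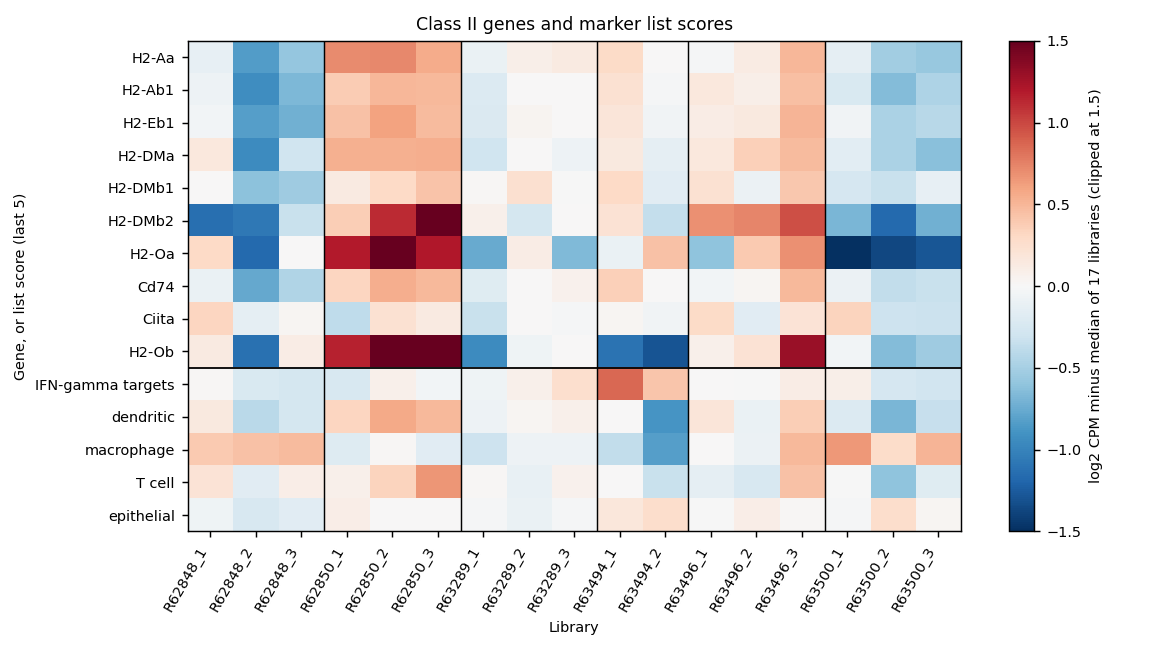
Colour gives log2 CPM minus the median of the 17 libraries, clipped at 1.5, for the 9 members and H2-Ob (rows above the line) and for the scores of 5 marker lists (rows below it), with vertical lines between codes. The chains and Cd74 are above their medians in all of R62850 and in R63496_3 and lowest in R62848_2, while the macrophage score is high in R62848 and R63500.

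Within codes, where differences between codes are taken out by subtracting each code's mean, Cd74 and the 3 chains still moved together. Over the 17 libraries, the within-code Pearson r was 0.907 to 0.972 in the 6 pairs among H2-Aa, H2-Ab1, H2-Eb1 and Cd74. It was 0.601 to 0.900 between these 4 genes and H2-DMa or H2-DMb1, 0.562 to 0.697 between them and Ciita, and 0.04997 to 0.583 between them and H2-DMb2 or H2-Oa. These correlations are descriptions, and the points share a library's depth and scaling. Over the 6 code means, r was 0.981 to 0.990 among the 4 genes but 0.0766 to 0.168 between them and Ciita.

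Ciita was set against each of the other 8 members within codes, with 2-sided exact permutation of libraries within codes (15552 orders) and adjustment over the 8 relations. A relation passed when the adjusted p of both r and rho was below 0.05, and 1 did: H2-Ab1, with r = 0.697 (exact p = 0.00154, adjusted p = 0.0123) and rho = 0.696 (exact p = 0.00566, adjusted p = 0.0453), the 2 genes lying on the same side of their code mean in 16 of 17 libraries. Without the 2 libraries farthest from the median of Ciita, R62850_1 and R63289_1, r was 0.733. This call sat at the threshold: r stayed between 0.655 and 0.755 when single libraries were left out, but the call was lost without any library of R62848, R62850 or R63494, or without R63289_1. H2-Eb1, Cd74, H2-DMb1 and H2-DMa had r between 0.537 and 0.692 with exact adjusted p of 0.0182 to 0.0432 for r, but 0.0592 to 0.132 for rho. H2-Aa (r = 0.562, exact adjusted p = 0.0676), H2-DMb2 (r = 0.359, exact adjusted p = 0.318) and H2-Oa (r = 0.170, exact adjusted p = 0.526) passed on neither. Depending on the library left out, 0 to 5 of the 8 relations passed.

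Cd74 and Ciita were then set against 5 marker list scores in the same way, with adjustment over 10 relations. Cd74 passed with 4 lists. With the dendritic score it had r = 0.803 and rho = 0.801 (exact adjusted p = 0.00617 and 0.0156), the same side in 15 of 17 libraries, and r = 0.887 without the 2 farthest libraries. With the interferon gamma target score it had r = 0.769 and rho = 0.799 (exact adjusted p = 0.00611 and 0.0129), the same side in 16 of 17 libraries, and r = 0.746 without the 2 farthest. With the T cell score it had r = 0.768 and rho = 0.738 (exact adjusted p = 0.00611 and 0.0156), and r = 0.871 without the 2 farthest. With the macrophage score it had r = 0.686 and rho = 0.728 (exact adjusted p = 0.0152 and 0.0158), and r = 0.597 without the 2 farthest. The macrophage relation was lost without R63289_1 (r = 0.664), without R63496_3 (r = 0.524), without R63496_3 and R63500_2 together (r = 0.499, exact adjusted p = 0.114) and without the 3 R62850 libraries (r = 0.683). The T cell relation was lost without R63496_3 (r = 0.664) and without that library and R63500_2 (r = 0.686). Single markers of the dendritic score differed. Within codes, r with the mean log2 CPM of H2-Aa, H2-Ab1, H2-Eb1 and Cd74 was 0.774 for Clec10a, 0.637 for Cd209a and 0.621 for Ccr7. It was 0.508 for Clec9a, 0.507 for Xcr1, 0.433 for Batf3 and 0.318 for Siglech. For Flt3 it was 0.071, for Zbtb46 0.008 and for Itgax, the most abundant, -0.096.

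Ciita passed with 2 of the 5 lists. With the interferon gamma target score it had r = 0.769 and rho = 0.767 (exact adjusted p = 0.00611 and 0.0132), the same side in 15 of 17 libraries, and r = 0.872 without the 2 farthest. With the dendritic score it had r = 0.619 and rho = 0.627 (exact adjusted p = 0.00611 and 0.0191), the same side in 16 of 17 libraries, and r = 0.783 without the 2 farthest. That relation was lost without any 1 library of R62848 or without R62850_1 (r = 0.558 to 0.629), and without all 3 R62850 libraries (r = 0.622). The macrophage (r = 0.498, exact adjusted p = 0.0712) and T cell scores (r = 0.604, exact adjusted p = 0.0712) did not pass with Ciita. The epithelial score passed with neither Cd74 (r = -0.051, rho = -0.078, exact adjusted p = 0.862 and 0.801) nor Ciita (r = -0.407, rho = -0.333, exact adjusted p = 0.333 and 0.337). The B cell list had too few tested genes for a score.

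**Figure D4:**
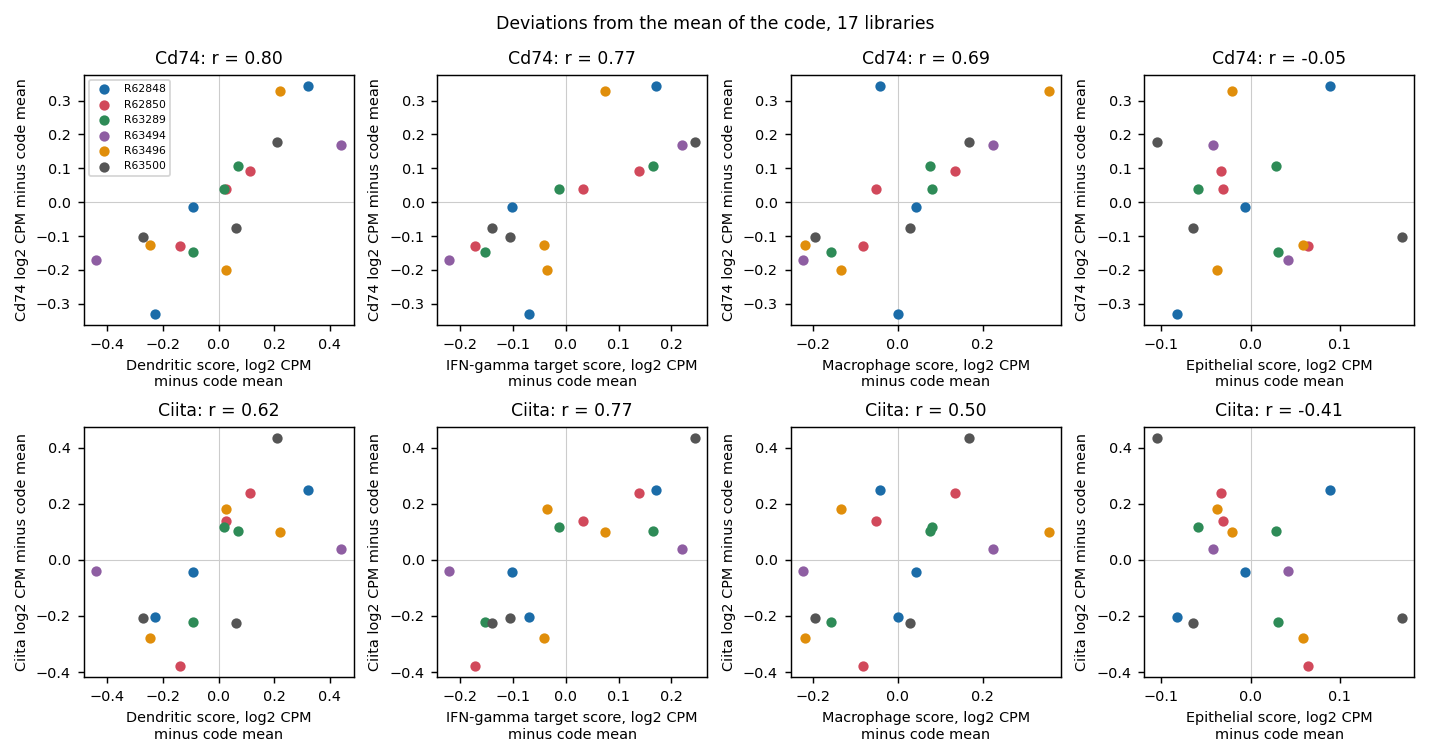
Each point is 1 of 17 libraries, with the log2 CPM of Cd74 (upper row) or Ciita (lower row) against a list score, both minus the mean of the library's code. Cd74 had r = 0.803 with the dendritic score, whose single markers differed, r = 0.769 with the interferon gamma target score and r = -0.051 with the epithelial score.

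The genes whose within-code pattern was most like that of the 4 abundant members were ranked over 15786 tested genes outside the 9, by the Pearson r with the mean log2 CPM of H2-Aa, H2-Ab1, H2-Eb1 and Cd74 in 17 libraries. The 10 highest had r between 0.842 and 0.907, a description of the top of a long list. They were Fxyd6 (r = 0.907), Ssbp2, Scpep1, Txndc16, Mmrn2, Tpst1, H2-D1, Tap1, C1qb and Cyp46a1. H2-D1, a class I heavy chain gene (r = 0.861, 359 to 862 CPM), and Tap1, the class I peptide transporter gene (r = 0.843, 35.4 to 56.8 CPM), belong to the other arm of antigen presentation. C1qb, a complement gene of macrophages, had r = 0.843 within codes and -0.674 over the 6 code means. Over the code means r was also negative for Fxyd6 (-0.532), Scpep1 (-0.659), Mmrn2 (-0.644) and Tpst1 (-0.539). For the rest of the 10 it lay between 0.0529 (Txndc16) and 0.882 (Ssbp2). Among the listed genes, the next were Iigp1 at rank 11 (r = 0.837), C1qa at rank 13, Gbp2 at rank 19 and Ctsz at rank 27. H2-Ob stood at rank 28 (r = 0.802), C1qc at rank 29, Gbp3 at rank 40 and Cd83 at rank 43 (r = 0.780).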

How the data were processed

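The deposited count columns hold whole, unnormalized read counts per gene in 17 bile duct libraries. The 17 other per-library columns, which hold the authors' normalized values, were not used. Per the submitters' processing notes, STAR 2.6.1c, featureCounts, edgeR 3.40.2 and mm10 were used. Neither the annotation release nor the strand setting is stated there. No column name matched a sample title, so libraries are named by column. The members and lists were chosen with earlier results of these data known.

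Genes were filtered with filterByExpr (intercept only, 15795 kept), scaled by TMM over the total of the kept genes and expressed as log2 CPM (prior count 2). RPKM used all counts and the table's gene lengths. Codes were compared in R 4.3.3 with edgeR 4.0.16 (glmQLFit, robust; F test; Benjamini-Hochberg below 0.05). On simulated counts for 15795 genes, this recovered 156 of 200 genes changed 2-fold in 1 code, with 11 false calls. Within-code relations used code-centred log2 CPM and exact permutation within codes (scipy 1.17.1). Strong planted relations were recovered in 100 of 100 simulated sets, and 4 of 100 sets with none gave a false call. A recovery here was an unadjusted permutation p of Pearson r below 0.05. Weaker relations and the adjusted call on both r and rho were not simulated. A list needed 5 tested genes for a score. The 135 genes came in 21 lists: chains, loading factors and regulator (the members), other class II, enhanceosome, processing, turnover, co-stimulation, class II readers, interferon gamma axis and targets, macrophage, dendritic, B, plasma and T cell, neutrophil, epithelial, endothelial, fibroblast and acinar. Adgre1 and Jchain were matched by identifier. Named are all members, the other class II and enhanceosome genes, in the lists described the 2 most abundant genes by median RPKM and the most variable tested one, and the 10 most similar genes. Genes singled out beyond that rule were chosen after their values were seen. Alternatives were DESeq2 size factors and test (1.42.0), no filter, a prior count of 0.5, and libraries left out. The alternative without R63496_3 and R63500_2, whose immunoglobulin shares stood apart, was chosen after seeing the data.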

Additional observations from a re-analysis of the deposited data

How the results depend on the processing

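The count of members that differed between codes was 7 or 8 of 9 under all alternatives run, and that of all genes 6409 to 8728 against 7692, with the highest count from the DESeq2 likelihood ratio test. The call of H2-DMb1 was lost without R62848_2 (adjusted p = 0.0553); Ciita was called under none (adjusted p = 0.425 without R63500_1, the lowest of all). The number of Ciita relations that passed, 1 of 8, was 4 with DESeq2 size factors, 0 without the 3 R62850 libraries, 3 without R63496_3 and R63500_2, and 0 to 5 with single libraries left out; the cause was not tested. The number of list relations that passed, 6 of 10, was 4 to 6. Median levels moved by less than the spread between libraries with DESeq2 size factors and with libraries left out. The alternative with the authors' normalized columns was not run. No paired analysis was possible because all samples form 1 group and the columns carry no pairing. Among the members, H2-Oa had the fewest counts (14 at the lowest).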
